A study of Mus musculus with 20 samples.

Results

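The transcriptomes of the glomeruli and of the peritubular capillaries, the first and second capillary bed of the kidney cortex, were compared directly across all genes in 8 of the 20 libraries of the series. The members were taken by the compartment and treatment given for each column of the deposited table, as the 4 libraries of control glomeruli and the 4 libraries of control peritubular capillaries. All mice were healthy young adults, male and wild type (WT) of the strain C57BL6/OlaHsd, no group carried an added allele or received an agent, and the kidneys were snap-frozen. Both kinds of sample were cut from cortex cryosections by laser microdissection, in which a laser excises a chosen area from a tissue section. Hematoxylin staining showed the glomeruli by their shape, and fluorescent isolectin B4, a lectin that binds endothelium, marked the peritubular capillaries. A smaller area was cut for the peritubular capillaries, and both groups followed the same low-input library protocol. A microdissected piece holds whatever cells lie in the cut area. Fewer cells of a type and less RNA per cell cannot be told apart in such samples. Replicates are labelled biological, and each mouse of the study gave both compartments, but no source used here ties a library to a mouse. The p-values reflect the spread between samples.

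A glomerulus is a tuft of fenestrated capillaries wrapped by podocytes, epithelial cells whose interlocking foot processes and slit diaphragms form the outer layer of the filtration barrier, and held together by mesangial cells. Blood leaves the tuft through the efferent arteriole and enters the peritubular capillaries, thin vessels that run between the tubules and take back what the proximal tubule reabsorbs from the filtrate. Proximal tubule cells carry a brush border with many solute transporters and depend on mitochondrial oxidation for energy.

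Glomerular libraries held between 7299352 and 9792824 gene counts and peritubular capillary libraries between 6864858 and 10585288. Values per library are given below in the order 93, 96, 98 and 100, the numbers in the deposited column names. Levels are counts per 1000000 counts (CPM) of the TMM-scaled library total in the fit of these 8 libraries, and fold changes are log2 values of glomeruli minus peritubular capillaries with their standard error (SE), so that a positive value is higher in glomeruli. Detection was more even in glomeruli: 18.6% of the genes tested had at most 3 counts in one glomerular library and over 50 in another, against 35.5% in peritubular capillaries. Genes with more than 10 counts numbered 11015, 10092, 11813 and 10513 in glomeruli and 9339, 9478, 8834 and 6349 in peritubular capillaries. The groups did not overlap (10858 ± 740 against 8500 ± 1460, SD, n = 4 each, exact permutation p 0.0286, two-sided, the smallest that 4 against 4 can give), and library 100 of the peritubular capillaries was the lowest. Genes with at least 1 count numbered 13495.5 ± 520 against 12529.75 ± 742 (exact permutation p 0.0571, n = 4 each).

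In peritubular capillaries, transcripts of the proximal tubule were higher by 4.39- to 5.63-fold as shares of all counts, while podocyte, mesangial, endothelial, smooth muscle and red cell transcripts were higher in glomeruli. Marker genes of podocyte foot processes took 1.56% ± 0.112 of counts in glomeruli against 0.0748% ± 0.0297 in peritubular capillaries (SD, n = 4 each). Those of endothelium in general took 0.542% ± 0.0421 against 0.0850% ± 0.0152. Proximal tubule enzymes and other abundant proximal tubule genes took 2.01% ± 0.299 against 11.3% ± 1.14, and proximal tubule transporters 0.493% ± 0.0730 against 2.73% ± 0.246. Of 17 marker lists, 16 differed without overlap between the libraries of the groups (exact permutation p 0.0286 each, two-sided, n = 4 each, Benjamini-Hochberg 0.0304 over the 17 lists). The exception was the parietal epithelium of the Bowman capsule, at 0.00899% ± 0.00252 against 0.00986% ± 0.00537 (exact p 0.771, n = 4 each). Shares rest on raw library totals, on which the median log2 fold change of all genes tested was 0.58, toward glomeruli. On these totals 30 cytoplasmic ribosomal protein genes were also 1.58-fold higher in glomeruli, without overlap.

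**Figure D1:**
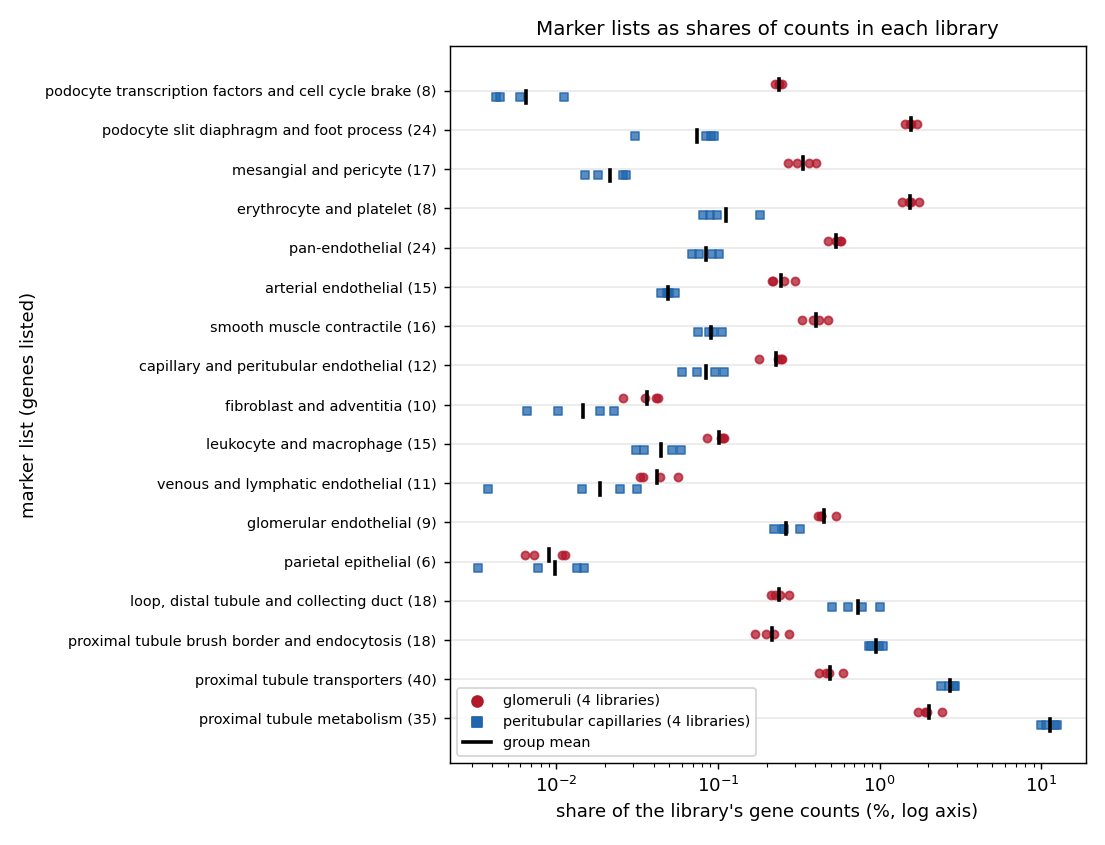
Share of each library's gene counts (percent, log axis) taken by the genes of 17 marker lists, with the number of genes listed in parentheses. Circles are the 4 glomerular and squares the 4 peritubular capillary libraries, and black ticks are group means; the groups overlap only for the parietal epithelial list, and the 4 tubule lists at the bottom are the only ones with all glomerular libraries below.

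The labels were checked against these lists. Glomerular libraries carried their defining podocyte, mesangial and glomerular endothelial genes at high levels. Peritubular capillary libraries held endothelial markers at a share near that of whole kidney sections (0.0850% against a mean of 0.0751%), and their share of proximal tubule metabolism genes (11.3%) was above the whole kidney mean of 7.45%. Whole kidney libraries were made from a set amount of RNA with fewer amplification cycles and without the low-input changes. Whole kidney values here and below are therefore set beside those of another protocol. The endothelial cadherin gene Cdh5 stood at 0.278, 8.34, 0.929 and 0.401 CPM in the peritubular capillary libraries, and Plvap, which encodes the diaphragm protein of fenestrated capillaries, at 107, 85.0, 13.5 and 78.8 CPM. In the fit scale of all 20 libraries, Cdh5 averaged 2.27 CPM against 11.5 in whole kidney, and Plvap 65.7 against 89.6. Pecam1 was near equal (61.3 against 65.1). Kdr (219 against 136), Emcn (210 against 71.15) and Cldn5 (3.57 against 2.69) averaged higher in peritubular capillaries, with library 100 far above the others of its group for Emcn. The peritubular capillary samples are therefore described by their labels below. Their higher tubule share stands beside every gene reported below as higher in peritubular capillaries, also where it is not repeated. Its part in those results was not tested.

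Of 10369 genes tested, 487 (4.70%) were higher in glomeruli and 585 (5.64%) higher in peritubular capillaries (edgeR quasi-likelihood F test, Benjamini-Hochberg adjusted p, given below as FDR, under 0.05, with a log2 fold change beyond 1 or -1). A further 3 genes passed the FDR alone, and 2113 genes had an unadjusted p under 0.05. On simulated counts with this spread the same fit called 6% of planted 4-fold changes and 37% of planted 16-fold changes. A gene that did not pass may therefore still differ. The median log2 fold change of all genes tested was -0.02. Separation of the groups is common: of all genes tested, 1105 had all glomerular libraries above and 906 all below. A called gene was picked for its difference, so its lack of overlap is a description and not further support. Among the calls, 26 and 15 were predicted genes or pseudogenes, which are not named. Counts of list members called, given below, stand against the 4.70% and 5.64% of all genes tested. The balance of the directions followed the scaling. With library totals alone, which moved the median of all genes to 0.58, the counts were 743 and 315 (70.2% of calls higher in glomeruli, against 45.4%), and scaled to the summed endothelial counts, with a median of -2.14, they were 211 and 3127 (6.32%). The count of genes higher in glomeruli was 280 without glomerular library 93, 272 without 96, 244 without 98 and 307 without 100, and 481 without peritubular capillary library 100.

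**Figure D2:**
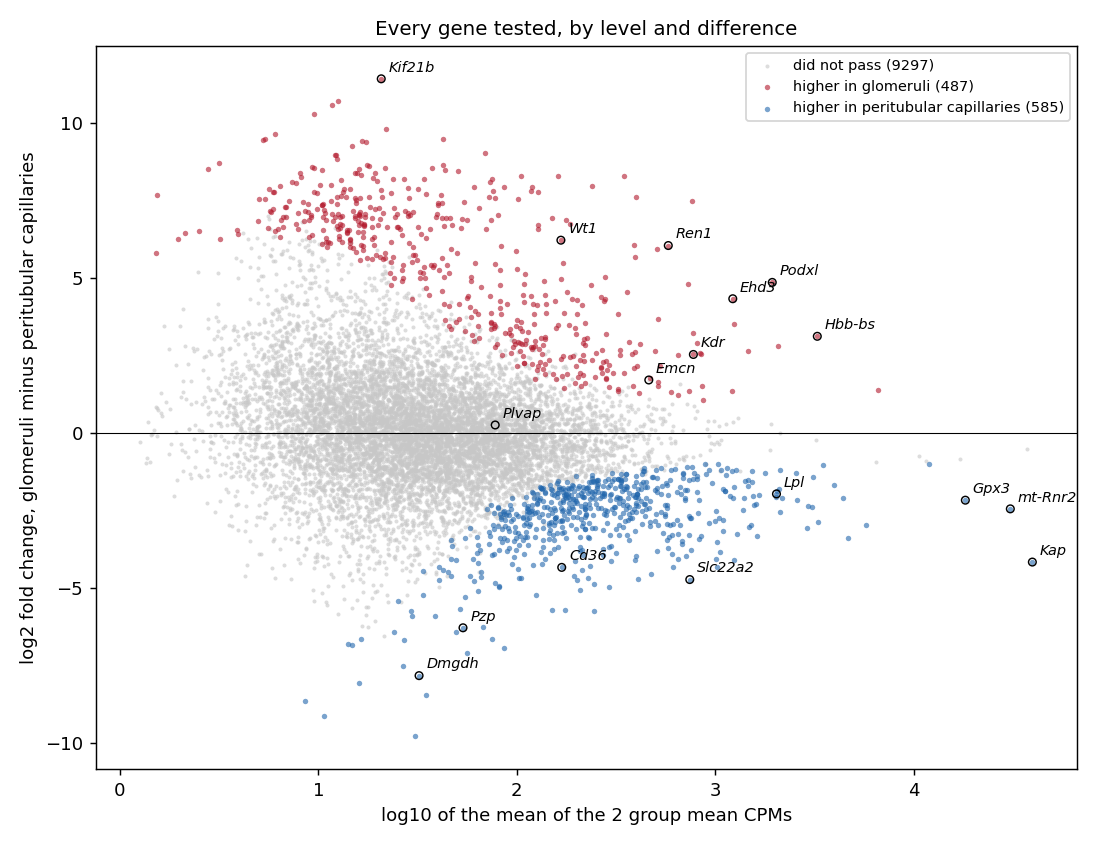
Log2 fold change (glomeruli minus peritubular capillaries) of each of the 10369 genes tested against log10 of the mean of the 2 group mean CPMs. Red points are the 487 genes higher in glomeruli, blue points the 585 higher in peritubular capillaries and grey points did not pass; the abundant mRNAs Kap and Gpx3 and the ribosomal RNA mt-Rnr2 lie at the lower right.

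The 12 genes with the highest fold among those with at least 10 CPM in every glomerular library included Kif21b and Dync1i1. Kif21b, a kinesin motor, stood at 48.7, 86.1, 15.5 and 15.7 CPM in glomeruli and had no count in the peritubular capillary libraries, so it was at least 349-fold higher, taking 3 counts over the group as the floor (FDR 0.00409). Dync1i1, an intermediate chain of the dynein motor, stood at 30.1, 28.9, 18.6 and 22.4 CPM, likewise against no count, and was at least 219-fold higher (FDR 0.00997). Their presence in every glomerular library was set by the choice of genes with at least 10 CPM there. Both fold bounds cover counting error only and not the spread between samples. The potassium channel gene Kcna6 and the GABA receptor subunit gene Gabrb1 each had 1 count in all peritubular capillary libraries together, against 1673 and 1300 in glomeruli. As summed counts over summed scaled totals, their ratios were 1150 (95% counting interval 207 to 45600) and 896 (161 to 35400).

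E2f1, a transcription factor of cell cycle entry, was even across glomeruli at 83.2, 81.8, 76.9 and 99.6 CPM, against 0, 0.163, 0.232 and 0 CPM (log2 fold change 9.47 ± 1.46, FDR 2.12e-04). Aplp1, a relative of the amyloid precursor protein, stood at 145, 172, 163 and 75.1 CPM against 0.418, 0.327, 0.232 and 0 CPM (log2 fold change 9.02 ± 1.10, FDR 1.62e-05). Both genes separated the groups with no overlap and were called in each of the 8 fits that left out 1 library. Of the other genes in this set, Hs3st3a1 and Hs3st6, which add 3-O-sulfate groups to heparan sulfate, had log2 fold changes of 8.65 and 8.55 (FDR of Hs3st3a1 0.0616 with all 16 microdissected libraries in the fit), the myosin light chain Myl7 of 8.65, the transmembrane collagen Col23a1 of 8.97 (FDR 0.0671 in that fit), and the calcium-dependent phospholipid-binding protein Cpne2 of 8.54. Adgrl3, an adhesion G protein-coupled receptor, stood at 13.4, 20.5, 12.4 and 97.2 CPM against 0, 0, 0.116 and 0.201 CPM (log2 fold change 8.62 ± 2.06, FDR 0.0102), with library 100 far above the other glomerular libraries. Its FDR was 0.0673 without that library.

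Podocyte genes were higher in glomeruli as a group. Of 24 genes of the slit diaphragm and foot process, 21 passed the filter on low counts, 18 were called higher in glomeruli and none lower, with a median log2 fold change of 4.79. Podxl, the charged surface protein podocalyxin (chr6:31519488-31563981 in GRCm38), stood at 4904, 3937, 3383 and 2756 CPM against 183, 144, 120.3 and 72.4 CPM (log2 fold change 4.85 ± 0.35, FDR 8.72e-08). Thsd7a, a foot process protein, stood at 399, 757, 645 and 1390 CPM against 2.37, 5.23, 6.62 and 1.805 CPM (log2 fold change 7.62 ± 0.60, FDR 1.93e-07). In neither gene did the groups overlap. The chloride channel family member Clic3 had a log2 fold change of 7.94 and Rhpn1, a protein of the podocyte cytoskeleton, of 6.86.

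Of 8 podocyte transcription factors and cell cycle regulators, 7 were higher in glomeruli, with a median log2 fold change of 5.94. Wt1, the factor that specifies and maintains podocytes, stood at 348, 477, 297 and 195 CPM against 1.25, 14.4, 1.51 and 0.602 CPM (log2 fold change 6.21 ± 0.91, FDR 1.22e-04), and Lmx1b at 169, 239, 116 and 80.0 CPM against 0.835, 0.490, 0.697 and 0.602 CPM (log2 fold change 7.81 ± 0.93, FDR 1.30e-05). Cdkn1c, an inhibitor of the cell cycle, stood at 861, 572, 812 and 849 CPM against 20.6, 20.1, 4.76 and 15.04 CPM (log2 fold change 5.68 ± 0.51, FDR 7.11e-07), and Foxc2 had a log2 fold change of 7.33. All 4 genes separated the groups. The member that did not pass was Tcf21 (5.38 ± 1.76, FDR 0.0575).

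**Figure D3:**
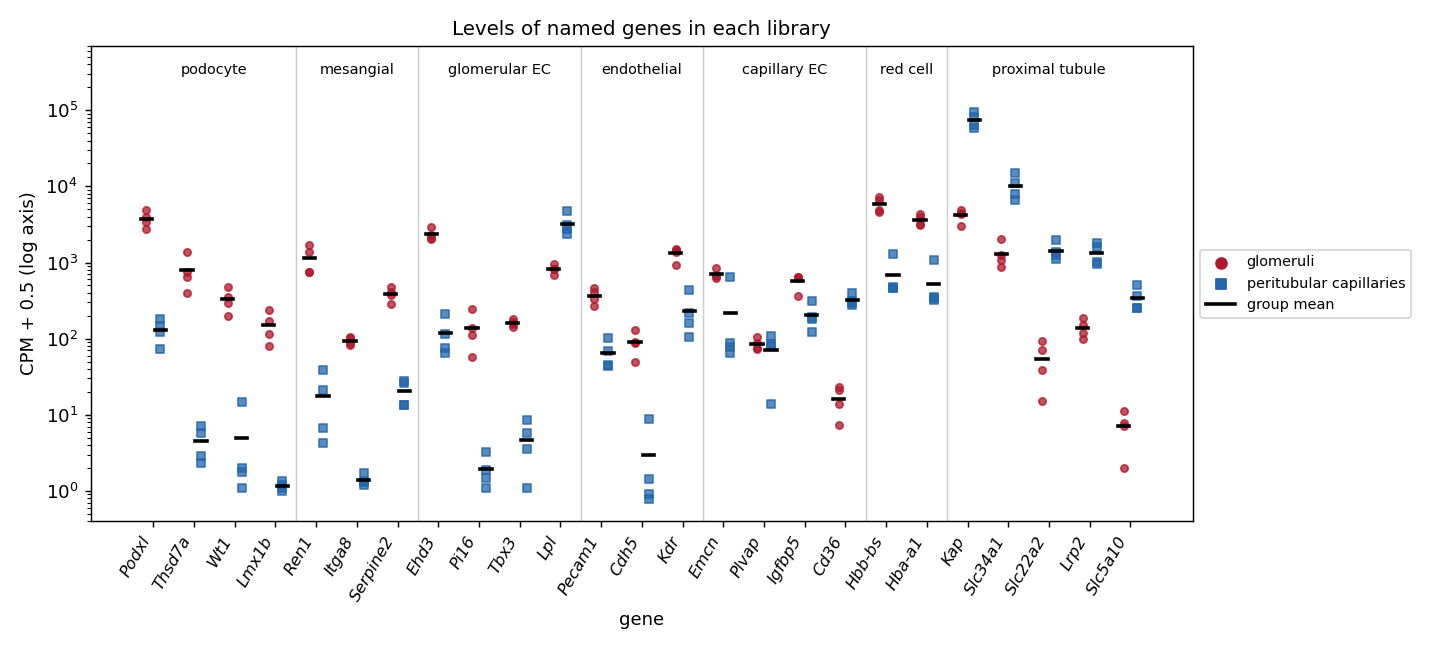
CPM plus 0.5 (log axis) of 25 genes in each of the 4 glomerular (circles) and 4 peritubular capillary (squares) libraries, with group means as black lines, grouped by the list they are in (EC, endothelial cell). The groups overlap for Emcn, through peritubular capillary library 100, and for Plvap.

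Mesangial and pericyte genes followed: 8 of 14 tested were higher in glomeruli and none lower, with a median log2 fold change of 3.15. Ren1, the renin gene of juxtaglomerular cells at the vascular pole, stood at 746, 1391, 748 and 1685 CPM against 6.13, 38.73, 20.7 and 3.81 CPM (log2 fold change 6.04 ± 0.66, FDR 5.45e-06). Itga8, an integrin chain that anchors mesangial cells, stood at 86.5, 102, 82.2 and 105 CPM against 0.696, 0.817, 0.813 and 1.20 CPM (log2 fold change 6.72 ± 1.11, FDR 4.16e-04), and Serpine2, a protease inhibitor, at 287, 405, 371 and 471 CPM against 13.1, 12.9, 25.8 and 27.7 CPM (log2 fold change 4.27 ± 0.51, FDR 1.30e-05). None of these 3 genes overlapped between the groups. Gata3, a mesangial transcription factor, had a log2 fold change of 3.22 (FDR 0.0157, and 0.0580 without glomerular library 100). The number of list members called was 4 without glomerular library 96, 98 or peritubular capillary library 93, and 5 without glomerular library 100 or peritubular capillary library 96.

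Of 13 contractile genes of smooth muscle tested, 5 were higher in glomeruli (3 without glomerular library 93 or 98) and none lower, with a median of 1.36. Myl9, a myosin light chain, stood at 1020, 350.4, 472 and 454 CPM against 80.5, 64.2, 72.3 and 140.4 CPM (log2 fold change 2.68 ± 0.45, FDR 4.58e-04), and Mylk, the kinase that phosphorylates it, at 1264, 1124, 1414 and 1292 CPM against 522, 339, 436 and 488 CPM (log2 fold change 1.51 ± 0.29, FDR 0.00191). In both genes all glomerular libraries were higher. Acta2, smooth muscle actin, was called at 2.06 (FDR 0.0148), with FDR 0.0516 and 0.0582 without glomerular libraries 93 and 98. Tagln and Myh11, which mark mature smooth muscle, did not pass (-0.91 ± 1.28 and 0.75 ± 0.89). Scaled to the endothelial counts, the fold changes of Acta2 and Mylk turned to -0.095 and -0.58.

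The comparison of 2 capillary beds asks above all how their endothelium differs. Of 24 genes shared by endothelia, 22 were tested, 8 were higher in glomeruli and none lower, with a median log2 fold change of 2.17. Pecam1, an endothelial adhesion molecule, stood at 457, 269.6, 408 and 336 CPM against 69.2, 44.6, 42.7 and 103 CPM (log2 fold change 2.50 ± 0.46, FDR 0.00128), and Kdr, the main receptor for vascular endothelial growth factor, at 1395, 924, 1513 and 1456 CPM against 215, 105, 161 and 438 CPM (log2 fold change 2.53 ± 0.41, FDR 3.27e-04). Cldn5, the tight junction claudin of endothelium, stood at 114, 171, 81.7 and 89.8 CPM against 0.835, 11.3, 1.97 and 1.404 CPM (log2 fold change 4.88 ± 1.06, FDR 0.00496). These 3 genes did not overlap between groups. Cdh5 was likewise called (log2 fold change 5.15 ± 1.29, FDR 0.0136), with FDR 0.0615 without glomerular library 100. The number called was 5 without glomerular library 93, 96 or 98 and 3 without 100. These differences accompany the 6.37-fold higher share of endothelial counts in glomeruli, and with scaling to the endothelial counts Pecam1, Kdr, Cldn5 and Cdh5 did not pass (FDR 0.479, 0.250, 0.159 and 0.182).

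Of 8 tested genes ascribed to glomerular endothelium, 6 were higher in glomeruli and 1 lower, with a median of 5.18. Ehd3, a membrane trafficking protein that marks glomerular endothelial cells (chr17:73804134-73832094 in GRCm38), stood at 2950, 2012, 2089 and 2286 CPM against 74.3, 115, 65.0 and 212 CPM (log2 fold change 4.32 ± 0.40, FDR 8.36e-07). Pi16, a secreted peptidase inhibitor, stood at 246, 57.8, 112 and 137 CPM against 0.975, 2.78, 1.39 and 0.602 CPM (log2 fold change 6.57 ± 0.98, FDR 1.51e-04), and the transcription factor Tbx3 at 165, 143, 157 and 179.6 CPM against 5.29, 8.01, 3.02 and 0.602 CPM (log2 fold change 5.24 ± 0.87, FDR 4.28e-04). All 3 genes separated the groups, and Tbx3 had FDR 0.0658 with endothelial scaling. Lpl, lipoprotein lipase, which frees fatty acids from circulating lipoproteins, went the other way at 677, 969.9, 828 and 828 CPM against 2724, 2371, 3101 and 4778 CPM (log2 fold change -1.97 ± 0.28, FDR 1.05e-04), again without overlap.

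Of 9 tested genes ascribed to capillary and peritubular endothelium, 1 was called in each direction (median log2 fold change 0.25), while as a share of counts the whole list was higher in glomeruli (0.228% ± 0.0331 against 0.0847% ± 0.0220, SD, n = 4 each, exact permutation p 0.0286). On the same raw totals the cytoplasmic ribosomal protein genes were 1.58-fold higher in glomeruli. DESeq2 called 1 higher and 2 lower and limma-voom 3 and 1, and with edgeR the number higher in glomeruli was 2 without peritubular capillary library 93 or 100 and 0 without glomerular library 96, 98 or 100 or peritubular capillary library 96 or 98. Plvap stood at 104, 74.4, 87.0 and 72.8 CPM in glomeruli against 107, 85.0, 13.5 and 78.8 CPM (log2 fold change 0.25 ± 0.72, FDR 0.922), so that the groups overlapped. Cd36, a fatty acid receptor of capillary endothelium that proximal tubule cells also carry, was lower in glomeruli at 20.6, 6.76, 22.4 and 13.4 CPM against 280.2, 296, 313 and 394 CPM (log2 fold change -4.34 ± 0.56, FDR 2.98e-05). Emcn, the endothelial sialomucin endomucin, stood at 673, 694, 842 and 621 CPM against 77.8, 63.6, 87.0 and 642 CPM (log2 fold change 1.70 ± 0.59, FDR 0.0756). Peritubular capillary library 100 alone reached the glomerular range for Emcn, and without it the log2 fold change was 3.13 with FDR 1.62e-05. That library also held the highest hemoglobin counts of its group and the lowest share of podocyte foot process genes (0.0306% against 0.0842 to 0.0941% in the other 3). Igfbp5, a binding protein of insulin-like growth factors, was called higher in glomeruli (log2 fold change 1.49 ± 0.39, FDR 0.0174). Its FDR rose to between 0.0522 and 0.0744 in 5 of the 8 fits without 1 library, namely without glomerular library 96, 98 or 100 or peritubular capillary library 96 or 98. Its log2 fold change was -0.57 when scaled to the endothelial counts.

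To compare the beds per endothelial RNA, the counts of 17 genes of the glomerular and the capillary lists were divided by the summed pan-endothelial counts of each library. With this scaling in edgeR, the median log2 fold change of all genes tested was -2.14. Of 10369 genes, 3127 were then called lower in glomeruli and 211 higher, so a lower value per endothelial count is common among all genes. How many of all genes separate the groups on this scale was not computed. None of the 17 passed Benjamini-Hochberg 0.05 in the exact permutation test, and 8 had an unadjusted exact p of 0.0286, the smallest possible, with an adjusted p of 0.0608 and no overlap. Of these, 3 were lower in glomeruli: Cd36 by a log2 difference of -6.56, Igfbp3, a binding protein of insulin-like growth factors, by -4.15 and Lpl by -4.02. The 5 that were higher in glomeruli were Ehd3 (2.38), Tbx3 (3.61), Pi16 (4.44), Smad6 (4.63) and Gata5, the last 2 being endothelial regulators of transcription. Gata5 had no count in the peritubular capillary libraries and was at least 22.6-fold higher per pan-endothelial count, with 3 counts over the group as the floor. Ehd3 reached 64.3, 49.1, 45.9 and 49.3 counts per 100 pan-endothelial counts in glomeruli and 6.46, 13.5, 7.68 and 14.5 in peritubular capillaries. Plvap reached 2.27, 1.82, 1.91 and 1.57 against 9.31, 9.94, 1.597 and 5.38 (log2 difference -1.50, exact p 0.114, adjusted 0.176, n = 4 each), with peritubular capillary library 98 inside the glomerular range. Emcn differed by 0.36 (exact p 0.657, n = 4 each). Cd36, Igfbp3 and Lpl were higher in peritubular capillaries, as was the proximal tubule share, by 5.54-fold for the transporter list. Whether these genes followed that share from library to library was not tested.

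**Figure D4:**
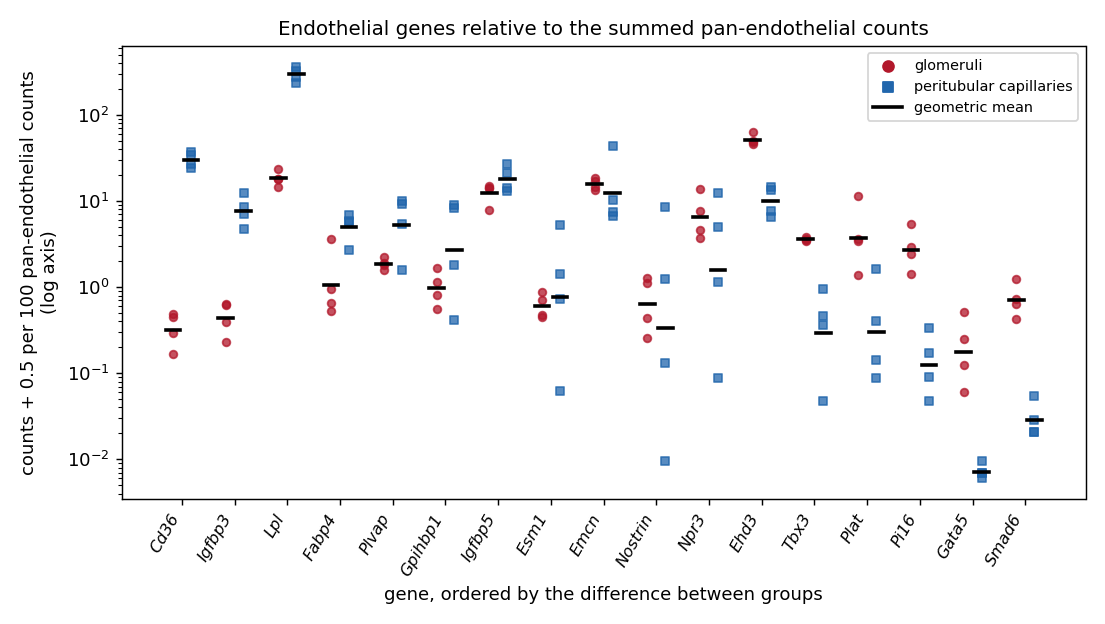
Counts plus 0.5 per 100 summed pan-endothelial counts (log axis) of 17 endothelial genes in the 4 glomerular (circles) and 4 peritubular capillary (squares) libraries, with geometric means as black lines. Cd36, Igfbp3 and Lpl at the left lie higher in all peritubular capillary libraries, and Ehd3, Tbx3, Pi16, Gata5 and Smad6 higher in all glomerular libraries; for Plvap and Emcn the groups overlap. Gata5 had 0 counts in peritubular capillaries, so its squares show the added 0.5.

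Arterial and venous lists took higher shares of counts in glomeruli (5.01-fold and 2.26-fold, without overlap), but few of their genes passed. On the same raw totals the cytoplasmic ribosomal protein genes were 1.58-fold higher in glomeruli, also without overlap. Of 12 arterial genes tested, 1 was called (2 without peritubular capillary library 98 or 100), Sema3g, which encodes a secreted semaphorin also made by podocytes, at 1371, 909.7, 951 and 759.5 CPM against 27.3, 19.6, 10.8 and 7.42 CPM (log2 fold change 5.93 ± 0.49, FDR 2.59e-07). DESeq2 called 2 arterial genes and limma-voom 4, all higher in glomeruli, and 3 had an unadjusted edgeR p under 0.05. Against the 4.70% of all genes tested that edgeR called higher in glomeruli, its 1 of 12 says little about the list. The gap junction gene Gja4 stood at 168, 128, 140.4 and 155 CPM against 1.53, 3.27, 2.79 and 96.1 CPM (FDR 0.163), with peritubular capillary library 100 far above the others of its group. None of 4 venous and lymphatic genes tested was called by edgeR, DESeq2 or limma-voom or had an unadjusted p under 0.05 (median 0.40).

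Ligands and receptors of vascular growth were higher in glomeruli for 3 of 10 genes tested, with none lower and a median of 1.83. Nrp1, a co-receptor for vascular endothelial growth factor and semaphorins, stood at 1426, 1553, 1406 and 1433 CPM against 158, 262, 231 and 345 CPM (log2 fold change 2.55 ± 0.32, FDR 2.40e-05), next to Kdr. Scaled to the endothelial counts, Nrp1 did not pass (log2 fold change 0.46, FDR 0.317), and neither did Kdr. Vegfa, the growth factor that podocytes supply to the capillary tuft, stood at 139.6, 300.3, 314 and 218 CPM against 66.5, 74.2, 61.3 and 89.8 CPM (log2 fold change 1.74 ± 0.49, FDR 0.0275). The groups did not overlap, but the FDR of Vegfa lay between 0.0533 and 0.129 without glomerular library 96, 98 or 100 or peritubular capillary library 93, 96 or 98, its FDR was 0.0691 with the library number as a block and 0.352 with all 16 microdissected libraries, and its log2 fold change was -0.34 scaled to the endothelial counts. Angpt2, an antagonist of the endothelial receptor Tie2, stood at 19.4, 28.8, 15.7 and 6.37 CPM against 0.139, 0.163, 0.116 and 0.602 CPM and did not pass (FDR 0.0511).

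Axon guidance genes, which also steer vessels and podocytes, were called higher in glomeruli for 5 of 17 tested and lower for none (median 1.61). Besides Sema3g, these included Sema5a at 502, 426, 646 and 1021 CPM against 47.8, 136, 151 and 5.62 CPM (log2 fold change 2.93 ± 0.66, FDR 0.00648) and Efnb1, an ephrin ligand at the slit diaphragm, at 374, 288, 366 and 588 CPM against 108, 51.0, 35.4 and 1.604 CPM (log2 fold change 3.04 ± 0.74, FDR 0.0112). Neither gene overlapped between the groups, and both missed the threshold with all 16 microdissected libraries (FDR 0.0523 and 0.0616). Sema3e had a log2 fold change of 6.93 (FDR 0.0191), with FDR 0.0569 without glomerular library 96, 0.0769 without 100 and 0.0517 with the library number as a block, and 3 genes of the list were called without library 96.

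Of 16 vasoactive signalling genes tested, Ren1 and Npr1 were higher in glomeruli and Agt in peritubular capillaries (median 1.30). Npr1, the receptor for atrial natriuretic peptide, stood at 244, 295, 246 and 169 CPM against 29.5, 2.94, 2.44 and 20.1 CPM (log2 fold change 4.12 ± 0.78, FDR 0.00166). Agt, angiotensinogen, the substrate that renin cleaves, stood at 0.431, 0.349, 2.59 and 0.797 CPM against 29.8, 69.5, 18.8 and 112 CPM (log2 fold change -5.76 ± 1.47, FDR 0.0155). The groups did not overlap in these genes, and Agt had FDR 0.0526 without glomerular library 93 and 0.107 with all 16 microdissected libraries. Nos3, the endothelial nitric oxide synthase, and Ednrb, an endothelin receptor, had log2 fold changes of 1.02 ± 1.45 and 0.10 ± 1.38 and did not pass.

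Among 10 regulators of complement and coagulation tested, 3 were higher in glomeruli and none lower (median 1.33). Plat, tissue plasminogen activator, stood at 164, 467, 156 and 63.6 CPM against 18.8, 1.14, 3.37 and 1.20 CPM (log2 fold change 5.11 ± 0.98, FDR 0.00179), and Cd59a, which blocks the membrane attack complex, at 388, 563, 512 and 406 CPM against 56.5, 77.8, 25.1 and 219.8 CPM (log2 fold change 2.30 ± 0.54, FDR 0.00886). Both separated the groups, and Cd59a had FDR 0.0895 with all 16 microdissected libraries. Complement component C3 overlapped at 156, 258, 124 and 20.7 CPM against 24.1, 0.981, 0.813 and 0.401 CPM (log2 fold change 4.40 ± 1.23, FDR 0.0260), and its FDR lay between 0.0540 and 0.124 without glomerular library 93, 96 or 98 or peritubular capillary library 96 or 98. Of 16 collagen IV, laminin and other basement membrane genes tested, 1 was called, Lamb2, the laminin chain of the mature glomerular basement membrane, at 419, 468, 413 and 536 CPM against 6.13, 11.9, 38.67 and 10.4 CPM (log2 fold change 4.77 ± 0.59, FDR 1.80e-05). Col4a3 and Col4a4, which encode collagen chains of that membrane, had log2 fold changes of 0.01 ± 0.66 and -0.10 ± 0.33. Against the 4.70% of all genes tested called higher in glomeruli, 1 of 16 is no result about this list.

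Of the claudins, the proteins that set tight junction permeability, 10 were tested. Cldn5 was higher in glomeruli, whereas Cldn2 and Cldn10 were higher in peritubular capillaries. Cldn2, a cation and water pore of the proximal tubule, stood at 86.3, 127, 119 and 56.3 CPM against 544, 652, 509 and 658 CPM (log2 fold change -2.60 ± 0.40, FDR 1.90e-04). Cldn10, whose splice forms pass anions or cations, stood at 24.6, 31.7, 29.3 and 26.5 CPM against 254, 285, 226 and 334 CPM (log2 fold change -3.29 ± 0.51, FDR 2.05e-04). All 3 separated the groups. Cldn1, a claudin of the parietal epithelium, stood at 0, 25.5, 13.2 and 13.8 CPM against 0.696, 2.62, 0.813 and 0.201 CPM and did not pass (FDR 0.329), nor did Cldn7, Cldn8, Cldn12, Cldn15, Cldn16 and Cldn19 (FDR from 0.681 to 0.990). Cldn3, Cldn4, Cldn11 and Cldn14 did not pass the filter.

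Solute transporters of the proximal tubule were the list with the most genes called in the other direction. Of 40 tested, 32 were higher in peritubular capillaries and none in glomeruli, with a median log2 fold change of -3.11. Slc34a1, the phosphate carrier of the brush border, stood at 2029, 1242, 1086 and 866 CPM in glomeruli against 6702, 7869, 11180 and 14920 CPM (log2 fold change -2.96 ± 0.31, FDR 3.96e-06). Slc22a6, the basolateral organic anion transporter, stood at 105, 74.3, 94.6 and 115 CPM against 1393, 1510, 2498 and 2407 CPM (log2 fold change -4.33 ± 0.35, FDR 1.96e-07), and the organic cation transporter Slc22a2 at 38.2, 14.6, 91.5 and 70.8 CPM against 1262, 1363, 1127 and 1986 CPM (log2 fold change -4.74 ± 0.50, FDR 3.70e-06). All glomerular libraries lay below all peritubular capillary libraries in these 3 genes. Slc5a12, a lactate carrier, did not pass (-0.83 ± 0.60).

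Of 18 brush border and endocytosis genes tested, 12 were higher in peritubular capillaries and none in glomeruli (median -3.12). Lrp2, the endocytic receptor megalin, stood at 185, 151, 116 and 97.2 CPM against 1015, 947, 1600 and 1808 CPM (log2 fold change -3.29 ± 0.36, FDR 5.96e-06), the protease meprin Mep1a at 159, 125, 127 and 144 CPM against 1726, 1405, 2479 and 2335 CPM (log2 fold change -3.84 ± 0.32, FDR 3.15e-07), and Cltrn, collectrin, which brings amino acid transporters to the brush border, at 256, 189.9, 312 and 228 CPM against 1920, 1604, 1943 and 1562 CPM (log2 fold change -2.84 ± 0.30, FDR 4.47e-06). None overlapped between the groups. Mme, neprilysin, which podocytes also make, had a log2 fold change of 0.05 ± 0.63 and did not pass.

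Of 34 proximal tubule metabolism genes tested, 27 were higher in peritubular capillaries and none in glomeruli (median -2.64). Kap, an androgen-regulated mRNA of proximal tubule cells (chr6:133849851-133853762 in GRCm38), stood at 4866, 3002, 4338 and 4447 CPM in glomeruli against 58090, 63900, 82110 and 96130 CPM (log2 fold change -4.17 ± 0.23, FDR 1.68e-09). Gpx3, the glutathione peroxidase secreted into plasma, stood at 8349, 7701, 5567 and 4774 CPM against 21490, 22650, 28640 and 46470 CPM (log2 fold change -2.18 ± 0.26, FDR 1.44e-05), and Acsm2, a medium-chain acyl-CoA synthetase, at 707, 576, 629 and 1348 CPM against 6483, 7956, 9613 and 10090 CPM (log2 fold change -3.39 ± 0.30, FDR 7.11e-07). The groups did not overlap for these genes, and in the fit scale of all 20 libraries Kap averaged 28750 CPM in whole kidney, between the 3966 CPM of glomeruli and the 71440 CPM of peritubular capillaries. Of 14 tested genes of Henle's loop, the distal tubule and the collecting duct, 6 were higher in peritubular capillaries and none in glomeruli (median -2.47), among them Slc12a3, the thiazide-sensitive carrier (log2 fold change -3.73 ± 0.39, FDR 3.14e-06), Aqp2, the vasopressin-regulated water channel (log2 fold change -4.23 ± 0.81, FDR 0.00173), and Umod, uromodulin (log2 fold change -1.76 ± 0.29, FDR 4.58e-04).

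The 12 genes with the largest fold toward peritubular capillaries, among those with at least 10 CPM in each of these libraries, included enzymes and carriers. Dmgdh, a mitochondrial enzyme of choline breakdown (chr13:93674433-93752833 in GRCm38), stood at 0.215, 0.466, 0.162 and 0.228 CPM against 66.3, 74.2, 52.4 and 63.6 CPM (log2 fold change -7.84 ± 1.44, FDR 0.00121). The retinol dehydrogenase family member Rdh16f2 stood at 1.83, 0.815, 0.162 and 0.341 CPM against 25.2, 142, 95.7 and 181 CPM (log2 fold change -7.12 ± 1.21, FDR 5.46e-04), and Pzp, a broad protease inhibitor, at 0.431, 0.349, 4.04 and 0.455 CPM against 73.7, 90.2, 121 and 138 CPM (log2 fold change -6.29 ± 1.19, FDR 0.00155). None of these 3 exceeded 4.04 CPM in a glomerular library. Their presence in every peritubular capillary library was set by the choice of genes with at least 10 CPM there. Further carriers were Slc22a7 (log2 fold change -6.27 ± 0.92, FDR 1.22e-04), Slco1a1 (log2 fold change -5.76 ± 0.68, FDR 1.08e-05), Slc5a10, a sugar transporter (log2 fold change -5.71 ± 0.67, FDR 1.02e-05), and Slc51b, a subunit of an organic solute carrier (log2 fold change -5.68 ± 1.13, FDR 0.00235, and 0.0523 with all 16 microdissected libraries). Mogat1, an enzyme of triglyceride synthesis, had a log2 fold change of -5.25 and the glycosyltransferase family member Glt1d1 of -6.42 (FDR 0.0553 in that fit). Agt, described above, belonged to this set. Tmem243, a membrane protein, had 18.5, 31.4, 11.2 and 172 CPM in peritubular capillaries and was called (log2 fold change -5.92 ± 1.52, FDR 0.0161), with FDR 0.147 without library 100 of that group, 0.0507 and 0.0574 without glomerular libraries 96 and 98 and 0.0528 with the library number as a block. Ngef, a guanine nucleotide exchange factor (log2 fold change -5.44 ± 1.61, FDR 0.0349), had FDR from 0.0906 to 0.132 without glomerular library 93, 96 or 98 or peritubular capillary library 98.

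**Figure D5:**
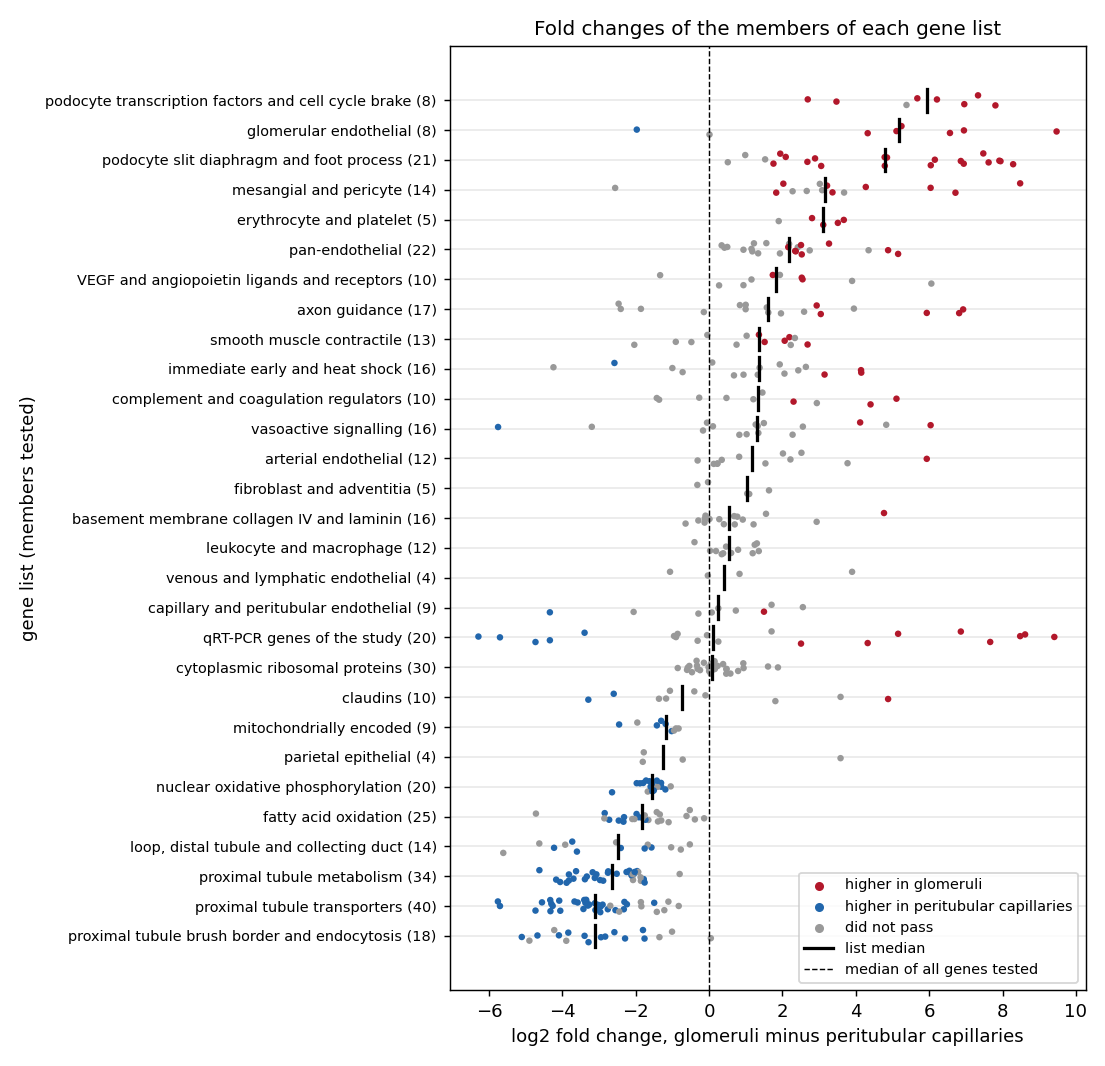
Log2 fold change (glomeruli minus peritubular capillaries) of each tested member of the 29 gene lists, ordered by list median, with the number tested in parentheses. Red members were higher in glomeruli, blue higher in peritubular capillaries and grey did not pass; black ticks are list medians and the dashed line is the median of all genes tested (-0.02).

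Genes of energy metabolism went in the same direction as the tubule lists. Of 25 fatty acid oxidation genes tested, 8 were higher in peritubular capillaries and none in glomeruli (median -1.82). Hadh, a dehydrogenase of mitochondrial beta-oxidation, stood at 129, 130.1, 112 and 84.2 CPM against 459, 398, 493 and 950.1 CPM (log2 fold change -2.34 ± 0.40, FDR 6.69e-04), with no overlap between the groups. The peroxisomal genes Acaa1b, a thiolase, and Cat, catalase, had log2 fold changes of -2.47 and -1.98. Of 20 nuclear genes of oxidative phosphorylation, 17 were higher in peritubular capillaries (11 without glomerular library 98 or 100) and none in glomeruli (median -1.55). Cox4i1, a subunit of cytochrome c oxidase, stood at 471, 357, 479.8 and 607 CPM against 1195, 1579, 1811 and 2501 CPM (log2 fold change -1.89 ± 0.31, FDR 4.28e-04), and Atp5b, a subunit of ATP synthase, at 933, 589.5, 734 and 454 CPM against 1594, 2023, 1669 and 3648 CPM (log2 fold change -1.72 ± 0.33, FDR 0.00184). The groups did not overlap in these genes.

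Of 9 tested genes in the mitochondrially encoded list, 5 were called higher in peritubular capillaries (median -1.19). Of the mitochondrial transfer RNA genes tested, 1 was called higher in glomeruli and 9 were not called. The 16S ribosomal RNA mt-Rnr2 stood at 7648, 11880, 8699 and 9617 CPM against 48720, 48770, 44390 and 65680 CPM (log2 fold change -2.46 ± 0.20, FDR 2.59e-07), and mt-Co1, a subunit of cytochrome c oxidase, at 1224, 1635, 1130 and 1192 CPM against 2915, 2843, 3355 and 2686 CPM (log2 fold change -1.19 ± 0.25, FDR 0.00399). Both separated the groups. mt-Cytb lay near the fold threshold at -1.02 (FDR 0.00461) and fell inside it without glomerular library 93 (-0.98) or 100 (-0.90). The complex I genes mt-Nd1, mt-Nd2 and mt-Nd4 passed the FDR but not the fold (log2 fold change -0.90 ± 0.20, FDR 0.00522, log2 fold change -0.96 ± 0.29, FDR 0.0421 and log2 fold change -0.83 ± 0.18, FDR 0.00529). With library totals alone, mt-Co1, mt-Cytb, mt-Nd5 and mt-Rnr1 did not pass (FDR 0.127, 0.227, 0.0570 and 0.0843). The mitochondrially encoded list took 5.58% ± 0.646 of counts in glomeruli and 9.92% ± 1.36 in peritubular capillaries (SD, n = 4 each), against a mean of 13.6% in whole kidney.

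Hemoglobin transcripts were higher in glomeruli. Hbb-bs, an adult beta globin, stood at 6719, 7186, 4654 and 4868 CPM against 461, 475, 468 and 1308 CPM (log2 fold change 3.11 ± 0.35, FDR 7.85e-06), and 4 of 5 red cell genes tested were called. Library 100 held the highest value of the peritubular capillary group, still below every glomerular library. The alpha and beta globin genes are near-identical pairs, so the split of reads between Hba-a1 and Hba-a2 and between Hbb-bs and Hbb-bt is uncertain. Actb, cytoskeletal actin, was the called gene with the highest mean level in glomeruli at 9764, 8473, 9099 and 10710 CPM against 2991, 3105, 3417 and 5006 CPM (log2 fold change 1.39 ± 0.23, FDR 4.19e-04), and Sparc, a matrix glycoprotein, stood at 2565, 2377, 2536 and 2620 CPM against 375, 189, 316 and 731 CPM (log2 fold change 2.65 ± 0.36, FDR 5.40e-05). Actb had a log2 fold change of -0.69 scaled to the endothelial counts, and an FDR of 0.0738 with DESeq2. None of 12 leukocyte, 5 fibroblast or 4 parietal epithelial genes tested was called by edgeR, with medians of 0.53, 1.04 and -1.25, and their unadjusted p was under 0.05 for 1, 0 and 0 genes. DESeq2 called 1 leukocyte and 1 parietal gene higher in glomeruli and limma-voom none, and without peritubular capillary library 100 edgeR called 1 leukocyte gene higher in glomeruli. Lyz2, lysozyme of macrophages, stood at 156, 200.5, 197 and 261 CPM against 65.3, 68.2, 40.1 and 184 CPM and did not pass.

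Of 30 cytoplasmic ribosomal protein genes none was called by edgeR, DESeq2 or limma-voom (median 0.09), and 1 had an unadjusted p under 0.05. As a share of raw counts the list was 1.58-fold higher in glomeruli (1.03% ± 0.144 against 0.651% ± 0.0275, SD, n = 4 each), without overlap. Of 16 immediate early and heat shock genes tested, 3 were higher in glomeruli and 1 in peritubular capillaries (2 without peritubular capillary library 93), with a median of 1.35. Klf2, a transcription factor that responds to blood flow in endothelium, stood at 142, 245, 139 and 150.2 CPM against 16.3, 14.5, 4.99 and 2.21 CPM (log2 fold change 4.15 ± 0.79, FDR 0.00172), and Hspb1, a small heat shock protein, at 233, 623, 129.6 and 79.1 CPM against 12.2, 6.54, 23.0 and 18.4 CPM (log2 fold change 4.14 ± 0.72, FDR 6.69e-04). Hsph1, a chaperone of the large heat shock family, was lower in glomeruli at 63.7, 85.0, 56.6 and 4.89 CPM against 444, 346, 155 and 314 CPM (log2 fold change -2.58 ± 0.66, FDR 0.0151). These genes did not overlap between the groups. Hsph1 had FDR 0.162 with all 16 microdissected libraries, 0.0856 with all 20 and 0.0638 with library totals alone, and Hspb1 0.0578 with limma-voom. Scaled to the endothelial counts, Klf2 and Hspb1 did not pass (FDR 0.161 and 0.082). Jun was called (log2 fold change 3.15 ± 0.85, FDR 0.0212), with FDR between 0.0534 and 0.0881 without any 1 of the glomerular libraries, 0.0545 with limma-voom and 0.0501 with the library number as a block.

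A further list held the mRNAs measured by quantitative RT-PCR, which were chosen in part from these libraries and so are no independent evidence of direction. Of its 23 genes, 20 were tested, 8 were higher in glomeruli and 5 in peritubular capillaries, with a median of 0.10. Besides those given above, Rab3b, a GTPase of vesicle release, stood at 72.4, 107, 92.5 and 59.98 CPM against 0.557, 0.327, 0.116 and 0.602 CPM (log2 fold change 7.66 ± 1.29, FDR 4.88e-04). Akr1b7, an aldose reductase family member of renin cells, stood at 8.83, 35.5, 20.8 and 17.8 CPM against 1 count in all peritubular capillary libraries (ratio of summed counts over summed scaled totals 551, 95% counting interval 98.7 to 21800). Its FDR was 0.0195, and between 0.0540 and 0.0603 without glomerular library 96 or 98 or peritubular capillary library 93, 96 or 98. Cytl1, Ptgis and Igf1, a cytokine-like protein, the prostacyclin synthase and a growth factor, did not pass (FDR 0.949, 0.992 and 0.874), and Bmx, Kcnab1 and Vwf did not reach the filter.

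To see whether promoters of the called genes shared sequence, RefSeq promoters (GRCm38.p6, the 250 bases before each start) were searched on both strands for motifs of kidney transcription factors. Of the genes tested, 8113 matched a promoter by symbol. The palindrome of HNF1, a factor of proximal tubule and other epithelia, is made of GTTAAT and ATTAAC with 1 base between them, and with up to 2 mismatches it was in 36 of 603 promoters (5.97%) of genes higher in peritubular capillaries and in 3 of 480 (0.625%) of genes higher in glomeruli. Among all promoters of tested genes the share was 1.07%, and among all 32851 promoters 1.24%. Some genes have several promoters, and the 603 and 480 belong to 468 and 371 genes. Named genes with a match were Cltrn, Acsm2, Cldn10, Pzp and Umod. The promoters of the first 3, whose matches lay within 60 bases of the start, are shown with the match in capitals.
Cltrn, chrX:164089937-164090186 (+): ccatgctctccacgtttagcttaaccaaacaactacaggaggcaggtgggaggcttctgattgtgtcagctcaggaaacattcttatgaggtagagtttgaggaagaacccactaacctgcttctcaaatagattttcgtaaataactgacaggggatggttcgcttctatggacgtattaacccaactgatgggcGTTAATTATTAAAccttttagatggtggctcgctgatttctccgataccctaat
Acsm2, chr7:119561458-119561707 (+): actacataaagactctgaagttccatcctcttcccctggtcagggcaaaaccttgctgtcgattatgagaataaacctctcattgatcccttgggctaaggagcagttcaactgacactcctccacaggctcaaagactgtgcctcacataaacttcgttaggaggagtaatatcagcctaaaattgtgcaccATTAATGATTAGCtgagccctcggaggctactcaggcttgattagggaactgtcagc
Cldn10, chr14:118787621-118787870 (+): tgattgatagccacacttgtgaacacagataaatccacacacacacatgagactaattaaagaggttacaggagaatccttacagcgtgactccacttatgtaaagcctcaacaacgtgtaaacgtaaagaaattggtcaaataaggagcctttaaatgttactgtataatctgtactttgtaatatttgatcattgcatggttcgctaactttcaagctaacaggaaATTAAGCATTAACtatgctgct
The match in Cltrn had 1 mismatch and began 54 bases before the start, and those in Acsm2 and Cldn10 had 2 mismatches and began 57 and 22 bases before it. The exact motif GCGTGGGAG of WT1 was in 6 of 480 promoters (1.25%) of genes higher in glomeruli, 2 of 603 (0.332%) of genes higher in peritubular capillaries and 0.623% of promoters of tested genes. The letters CAAAGTCCA of HNF4 were in 2 and 3 promoters (0.417% and 0.498%), and TTAATTAA of LMX1B in 2 and 7 (0.417% and 1.16%), in the same order. A match is a description of these letters and not evidence of binding.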

How the data were processed

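Glomeruli and peritubular capillaries of mouse kidney cortex were profiled by 3′ mRNA sequencing (QuantSeq FWD). Trimming (bbduk), alignment to GRCm38.p6 (STAR) and counting per gene (htseq-count) were done by the authors, who deposited raw counts in 1 table. The submitters' processing notes also name featureCounts and GRCm39, with no role. No source used here states the strand setting or whether molecular identifiers were used. Overlapping and antisense genes therefore cannot be told apart. Intervals, and folds given as at least a value, cover counting error only. The table holds 34255 genes, of which 34185 matched GENCODE M21 by identifier, and 3 lines naming no gene. Its 168 value columns include 20 of these samples, mapped to groups by the section and treatment that the table names above each column, and 148 that were not used.

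The 8 libraries were fitted alone in R 4.3.3 with edgeR 4.0.16 (TMM scaling, filterByExpr by group, legacy quasi-likelihood F test), after a check on simulated data. That check planted 100 changes at each of 4-fold and 16-fold, recovered 6% and 37% of them, and gave 1 false call. Calls needed a Benjamini-Hochberg FDR under 0.05 over all genes tested, with a log2 fold change beyond 1 or -1. Totals were 6864858 to 10585288 counts per library, and no libraries were identical. SEs were the log2 fold change over the square root of F. Exact permutation tests (SciPy 1.17.1) served shares of counts, detected genes and endothelial genes scaled as log2 of the count plus 0.5 over the summed pan-endothelial count. Values in whole kidney use TMM over 20 libraries.

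Genes were named by rule: in each direction the 12 called genes with the largest fold at 10 CPM or more in all libraries of the higher group, the 6 with the highest level, up to 4 members per list by p and up to 2 against its median, the study's 23 qRT-PCR genes and all claudins. Some genes that the rule named are not reported here. Tcf21, Tagln, Myh11, Nos3, Ednrb, Col4a3, Col4a4, Slc5a12, Mme, Igfbp3, Gata5, Smad6 and mt-Nd4 were added after their values were seen. The comparison, the 29 gene lists and the tests were chosen with earlier results of these data known. Alternatives were other scalings, filters, tools, sample sets, a replicate block and each library left out.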

Additional observations from a re-analysis of the deposited data

Results flagged for a closer look

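In 46 of the 388 groups of 4 values examined (levels of the named genes, shares of counts, scaled endothelial genes and totals), 1 library lay so far from the other 3 that its gap exceeded the 95% critical value of Dixon's test. For normally distributed values chance gives about 1 in 20 such groups. Some groups here hold values at or near 0, and a group with 1 count and otherwise 0 always exceeds the limit. The number flagged therefore cannot be set against that rate. Peritubular capillary library 100 held 16 of the far values. Peritubular capillary library 100 was far above the other 3 of its group for Akr1b7 (0.201 CPM against 0), Angpt2 (0.602 CPM against 0.116 to 0.163), Aqp2 (536 CPM against 142 to 190.3), Cldn15 (175 CPM against 0.348 to 4.73), Emcn (642 CPM against 63.6 to 87.0), Gja4 (96.1 CPM against 1.53 to 3.27), Hba-a1 (1070 CPM against 319.8 to 348), Hbb-bs (1308 CPM against 461 to 475), Hbb-bt (145 CPM against 48.1 to 57.2), mt-Nd5 (3087 CPM against 2258 to 2391), Myl7 (0.401 CPM against 0.116 to 0.163), Slco1a1 (754 CPM against 367 to 411) and Tmem243 (172 CPM against 11.2 to 31.4). Peritubular capillary library 98 was far above the other 3 of its group for Alox12 (6.27 CPM against 0), Col23a1 (0.116 CPM against 0), Gabrb1 (0.116 CPM against 0) and Kcna6 (0.116 CPM against 0). Peritubular capillary library 96 was far above the other 3 of its group for Adgre1 (15.8 CPM against 0 to 0.418), Cdh5 (8.34 CPM against 0.278 to 0.929), Cldn5 (11.3 CPM against 0.835 to 1.97) and Wt1 (14.4 CPM against 0.602 to 1.51). Peritubular capillary library 93 was far above the other 3 of its group for C3 (24.1 CPM against 0.401 to 0.981), Cldn16 (6.40 CPM against 0.116 to 0.201), Flt4 (4.18 CPM against 0 to 0.201), Plat (18.8 CPM against 1.14 to 3.37) and Rhpn1 (8.91 CPM against 0.981 to 1.04). Glomerular library 93 was far below the other 3 of its group for Igfbp5 (361 CPM against 621 to 653). Glomerular library 96 was far above the other 3 of its group for Cldn19 (35.5 CPM against 0.341 to 0.970), Cldn7 (61.3 CPM against 0 to 1.05), Cldn8 (29.7 CPM against 0.114 to 3.72), Dcn (63.1 CPM against 23.9 to 27.6), Klf2 (245 CPM against 139 to 150.2) and Slc22a7 (2.33 CPM against 1.46 to 1.59). Glomerular library 96 was far below the other 3 of its group for Cdkn1c (572 CPM against 812 to 861). Glomerular library 98 was far above the other 3 of its group for Glt1d1 (2.75 CPM against 0.466 to 0.646) and Pzp (4.04 CPM against 0.349 to 0.455). Glomerular library 98 was far below the other 3 of its group for Rhpn1 (195 CPM against 394 to 411). Glomerular library 100 was far above the other 3 of its group for Acsm2 (1348 CPM against 576 to 707) and Adgrl3 (97.2 CPM against 12.4 to 20.5). The far values under 1 CPM rest on 1 to 3 counts.

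The share of glomerular endothelial genes in glomerular library 93 was 0.535% against 0.418 to 0.435%, and that of podocyte foot process genes in peritubular capillary library 100 was 0.0306% against 0.0842 to 0.0941%. Per 100 pan-endothelial counts, peritubular capillary library 100 held 8.46 of Nostrin (0.00955 to 1.24 in the others) and 43.8 of Emcn (6.76 to 10.3), glomerular library 93 held 7.87 of Igfbp5 (14.1 to 15.2), and glomerular library 96 held 3.60 of Fabp4 (0.530 to 0.964). The total of glomerular library 98, 9792824 counts, lay above the 7299352 to 7533913 of the others.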

How the results depend on the processing

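The directions of the 105 named genes that passed held under each alternative run except scaling to the summed endothelial counts, and 65 of the 105 kept their call in every alternative (91 in all 8 fits that left out 1 library). Endothelial scaling ended or turned 25 of these calls, the fit of 16 libraries ended 17, library totals alone 7, the replicate block 4, DESeq2 and the fit of 20 libraries 3 each and limma-voom 2. Among the calls that endothelial scaling ended were those of Npr1, Plat, Cd59a, C3 and Sema5a (FDR 0.0797, 0.0507, 0.577, 0.197 and 0.53). Those of Efnb1, Myl9, Gata3, Sparc, Jun and Hba-a1 ended too (FDR 0.405, 0.304, 0.437, 0.116, 0.507 and 0.0547). Counts of calls moved more (487 higher in glomeruli, 585 in peritubular capillaries). They were 268 and 276 with all 16 microdissected libraries in the fit, 743 and 315 with library totals alone, 211 and 3127 with endothelial scaling, 1298 and 1107 with DESeq2, and 765 and 1036 with the edgeR 4 form, and the study's kind of independent filter gave 897 higher in peritubular capillaries. Leaving out 1 library gave 244 to 481 and 431 to 618. Endothelial scaling turned the sign of 42 called genes. Thinning to the smallest total put the difference in genes with at least 1 count past the threshold (1140, exact permutation p 0.0286, n = 4 each), and without 1 library the difference ran from 603.5 to 1165.25 genes, and from 1641.25 to 2684.25 with more than 10 counts. Exact tests of 3 against 4 libraries cannot go below 0.0571, so leaving out a library says nothing about those calls. The cause of these shifts was not tested.

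Log2 fold changes that changed sign, with endothelial scaling, were those of Acta2 (-0.095), Actb (-0.69), Adgre1 (-1.03), Cldn16 (-0.082), Col1a1 (-0.85), Col1a2 (-1.03), Col4a1 (-1.28), Emcn (-0.11), H2-Aa (-0.96), Hspg2 (-0.997), Igfbp5 (-0.57), Ltbp4 (-0.39), Lyz2 (-0.76), Mylk (-0.58), Nr2f2 (-1.32), Pdgfra (-0.67), Plvap (-1.79), Ptprc (-0.97), Rps19 (-1.62) and Vegfa (-0.34). With library totals alone they were those of Cldn15 (0.53), Cldn7 (0.32), Cytl1 (0.31), Dcn (0.20), Ptgis (0.58) and Vcam1 (0.50), and with limma-voom Cldn15 (2.72), Dcn (0.41), Krt8 (0.25) and Vcam1 (0.46). With 1 library left out, values ran from -0.89 to 3.97 for Cldn15 (3.97 without peritubular capillary library 100), -4.74 to 0.072 for Cldn19, -5.36 to 1.08 for Cldn7, -0.76 to 0.73 for Dcn, -1.48 to 0.30 for Igf1, -0.16 to 0.45 for Plvap, -0.46 to 0.22 for Ptgis and -0.53 to 0.55 for Vcam1, none of which passed in the fit of all 8 libraries. Emcn scaled to Pecam1 alone differed by -0.13.

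Both compartments were cut from each mouse of the study, but no source used here says that the number in a column name is the mouse. The values cannot decide it, since the check ran over all genes tested. Of these, 18.6% were detected patchily in glomeruli and 35.5% in peritubular capillaries. Deviations of same-numbered libraries from their group means correlated at -0.0149, 0.0261, 0.00962 and -0.0019, and 2 of 4 numbers matched themselves best. With the number as a replicate block, 424 and 542 genes were called, the calls of Vegfa, Jun, Sema3e and Tmem243 were lost (FDR 0.0691, 0.0501, 0.0517 and 0.0528), and the signs of Cldn15 (2.82), Dcn (0.22), Igf1 (0.17), Krt8 (0.25) and Vcam1 (0.37) turned.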

Other observations

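Genes were also grouped by the leading letters of their symbols, whatever list they were in. Of the stems with at least 15 genes tested, the subunits of cytochrome c oxidase and its assembly factors (symbols in Cox) had the highest share called in peritubular capillaries, with 10 of 21 higher there (47.6%, against 5.64% of all genes tested) and none in glomeruli. Cytochrome P450 genes (Cyp) had 11 of 29 higher in peritubular capillaries (37.9%), among them Cyp4a31 (log2 fold change -4.69 ± 0.56, FDR 1.28e-05), and 1 in glomeruli, Cyp26b1, which degrades retinoic acid (4.23 ± 1.09, FDR 0.0162). Of 218 solute carriers (Slc), 53 were higher in peritubular capillaries (24.3%) and 3 in glomeruli. Names in Slc, Cyp and Cox overlap the lists above.

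In the other direction the semaphorins (Sema) had the highest share, with 4 of 16 tested higher in glomeruli (25.0%, against 4.70% of all genes tested). They were Sema3e, Sema3g, Sema5a and Sema5b (8.39 ± 2.22, FDR 0.0193). Next came the symbols in St, with 3 of 15 (20%): the sialyltransferases St3gal1 (5.29 ± 0.87, FDR 0.000416), St3gal5 (7.88 ± 2.15, FDR 0.0228) and St3gal6 (3.26 ± 0.96, FDR 0.0336), which add sialic acid to surface glycans. The guanine nucleotide exchange factors Arhgef17 (4.32 ± 0.73, FDR 0.000517) and Arhgef18 (2.78 ± 0.79, FDR 0.0285) were the 2 of 19 in Arhgef that passed. These stems and genes were chosen after their values were seen, and no test was made of the shares.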
